A study of Gallus gallus with 10 samples.

Results

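HOX genes encode homeodomain transcription factors that are switched on along the body axis in the order in which they lie in the clusters HOXA, HOXB, HOXC and HOXD. The number in a gene's name is its paralog group, so genes of low number are used towards the head and genes of high number towards the tail. In mouse, HOXA9, HOXA10, HOXA11 and HOXA13 are used in that order along the Müllerian duct, the embryonic tube that forms the oviduct, uterus and upper vagina, and adult tract segments keep part of this pattern.

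All rows of the expression table whose symbol was HOX, followed by A, B, C or D and a number, were taken as the HOX genes. There were 37 of them among 17617 rows, with 11 in cluster A, 9 in B, 9 in C and 8 in D. The study compared dwarf white hens, a small-bodied layer line, that laid either translucent eggs or opaque eggs, and asked which oviduct genes differed between them. Each group had 5 hens and 1 poly(A)-selected RNA-seq library per hen, all labelled genotype WT, so hens were separate animals and the p-values measure the spread between hens. Per the study's methods, the translucent hens were chosen for thinner eggshell membranes and the opaque hens for normal ones, and the white isthmus, the oviduct segment that lays down the membrane fibers, was collected at a fixed time after egg laying. For laid eggs the paper reported significantly thinner membranes and lower stretching force in the translucent group. At sampling of the isthmus it found no significant difference in membrane thickness between the groups. The labels do not give the age of each hen, and the hens had no other treatment in the labels. Whole tissue was sequenced, so fewer cells of a type and less RNA per cell cannot be told apart.

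Of the 3 listed isthmus genes 2 matched, and these 2 were detected in every hen at high levels. COL10A1, the collagen of the membrane fibers, had a mean of 28714 FPKM, and LOXL2, which cross-links collagen, had 2786 FPKM, where FPKM is a level per length of gene, scaled to the hen's mapped fragments. Total counts per hen were 15245165 to 19014779 in the translucent group and 11601225 to 17309287 in the opaque group. The first principal component, with 39.8% of the variance, set Translucent-1 and Opaque-5 apart from the other 8 hens. Summed markers of epithelium (7 of 10 listed genes matched, and these 7 were detected in every hen) were 4327 CPM (read counts corrected for library size and edgeR's TMM factors) in Translucent-1, 4806 CPM in Opaque-5 and 4180 CPM in Opaque-4, and 2300 to 3216 CPM in the other 7 hens. LOXL2 was at 5047 CPM in Translucent-1 and 5231 CPM in Opaque-5, and at 6808 to 16895 CPM in the other 8 hens. COL10A1 was at 62114 CPM in Translucent-1, 66291 CPM in Opaque-5 and 50752 to 64417 CPM in the other 8 hens. Summed egg white genes of the magnum, the neighbouring segment, were 37151 CPM in Translucent-1 and 8077 to 23094 CPM in the others. Of the 6 listed genes 5 matched, of which 3 were detected in every hen. TF made up most of the sum in each hen, at 7992 to 24707 CPM. OVAL was at 11763 CPM in Translucent-1, 1440 CPM in Translucent-4 and 1.60 to 479.5 CPM in the other 8 hens. Summed shell gland genes, of the segment on the other side, were 1087 CPM in Translucent-1 and 1164 CPM in Opaque-5. The other 8 hens lay between 525.6 and 951.8 CPM. Of the 6 listed genes 4 matched, of which 2 were detected in every hen. CA2 and ATP2B2 made up nearly all of this sum. CALB1 was at 0.184 CPM in Translucent-1, 6.62 CPM in Opaque-5 and 11.2 CPM in Opaque-4. SLC26A9 was at 0.246 CPM in Translucent-1 and 0.0988 CPM in Opaque-5. Summed smooth muscle genes were 1206 CPM in Translucent-1, 570.7 CPM in Opaque-5 and 433.4 to 839.5 CPM in the other 8 hens. All 8 listed fibroblast genes were detected in every hen and summed to 308.9 CPM in Opaque-5, 391.6 CPM in Translucent-1 and 382.4 to 714.7 CPM in the other 8 hens.

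By level, though not by the share of genes detected, the isthmus used mainly the middle of the HOX series. Of the 37 genes, 21 had at least 3 reads in every hen, which was taken as detected, 6 reached 3 reads in some hens, 3 had reads but never 3 in a hen, and 7 had 0 reads in all 10 hens. The floor of 3 reads corresponded to 0.158 to 0.259 CPM depending on the hen, and it covers counting error only. Of paralog groups 4 to 8, which pattern the trunk, 10 of 15 genes were detected in every hen and 0 lacked reads. Of groups 1 to 3, used in the hindbrain and neck, 5 of 6 were detected in every hen, and of groups 9 to 13, used in the lower trunk, limb and tail, 6 of 16 were detected and 6 had no reads. The highest mean level was 209.3 FPKM in groups 4 to 8, 6.38 FPKM in groups 1 to 3 and 3.20 FPKM in groups 9 to 13.

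**Figure D1:**
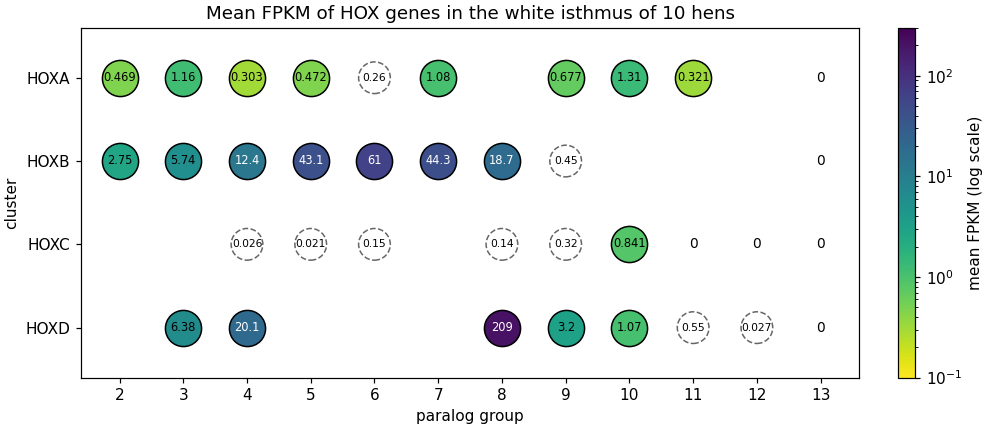
Mean FPKM over 10 hens of HOX genes of paralog groups 2 to 13, by cluster (rows) and paralog group (columns), with colour on a log scale. Filled circles are the 21 genes with at least 3 reads in every hen, dashed circles are genes with fewer reads in at least 1 hen, and a bare 0 is a gene with 0 reads in all hens; the levels are highest from group 4 to group 8 of clusters B and D and reach 209 FPKM at HOXD8.

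The clusters differed in how much of them was on. Cluster B had 7 of 9 genes detected in every hen, cluster A 8 of 11, cluster D 5 of 8 and cluster C 1 of 9, and that 1 gene was HOXC10. The symbols HOXC4, HOXC5 and HOXC6 are not in the RefSeq gene list. The number of detected genes did not follow the level. Cluster D held 55.0% ± 4.09 (SD, n = 10) of the summed HOX FPKM and cluster B held 43.2% ± 4.01, while cluster A held 1.42% ± 0.409 and cluster C 0.347% ± 0.127. The highest share of cluster A in any hen was 2.02%, in Opaque-1, and the lowest share of cluster B was 36.4%, in Translucent-1. Groups 4 to 8 held 94.1% ± 1.55 of the sum, between 92.3% and 96.5%.

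A single gene, HOXD8, stood above all others. HOXD8 (ENSGALG00000037272) belongs to paralog group 8, whose genes act in the trunk. In the translucent hens it was at 302.4, 193.7, 203.2, 181.2 and 166.0 FPKM, and in the opaque hens at 186.0, 180.5, 188.0, 231.4 and 260.9 FPKM. Translucent-1 was the highest hen, followed by Opaque-5 and Opaque-4, and the groups overlapped. Its mean of 209.3 ± 42.9 FPKM (SD, n = 10) was rank 282 of all 17617 rows and rank 1 of the 188 rows described as homeobox genes, ahead of MSX2 and EMX2, both oviduct regulators, at 119.1 FPKM each. HOXD8 alone held 47.7% ± 4.71 of the summed HOX FPKM, with 56.4% in Translucent-1, 55.9% in Opaque-5 and 43.4% to 48.9% in the other 8 hens. The 3 hens with the highest HOXD8 were the 3 with the highest summed epithelium markers. EPCAM and KRT7 made up most of that sum in each hen. For EPCAM, CDH1, KRT8, KRT18, KRT7 and CLDN3 these were also the 3 highest hens. ESRP1 went the other way, at 12.3 CPM in Translucent-1, 14.3 CPM in Opaque-4 and 16.2 CPM in Opaque-5. In the other hens ESRP1 was at 16.1 to 22.5 CPM. The part of these markers in the HOXD8 level was not tested.

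Next came a run of HOXB genes. HOXB6 (ENSGALG00000037619), a gene of the thoracic part of the trunk, was at 68.4, 48.4, 74.2, 52.4 and 58.9 FPKM in the translucent hens and 45.7, 63.5, 63.3, 81.4 and 53.8 FPKM in the opaque hens. HOXB7 (ENSGALG00000032740), its neighbour in the cluster, was at 52.3, 46.1, 46.7, 40.2 and 36.3 FPKM in the translucent and 38.6, 35.5, 43.3, 51.0 and 52.8 FPKM in the opaque hens. For both genes each group held high and low hens, and HOXB7 shared with HOXD8 its 3 highest hens, Opaque-5, Translucent-1 and Opaque-4. HOXB5 (ENSGALG00000034907), which in mouse acts at the level of the shoulder and in the developing gut and lung, was at 40.4, 44.9, 52.0, 46.4 and 32.3 FPKM in the translucent and 30.3, 42.4, 39.5, 66.1 and 37.2 FPKM in the opaque hens. Its highest hen was Opaque-4, which was also the highest for HOXB6 and HOXB8. HOXB8 (ENSGALG00000040320), the other group 8 gene of this cluster, was at 18.2, 21.2, 24.4, 16.5 and 18.8 FPKM in the translucent and 18.5, 11.8, 14.4, 26.1 and 17.2 FPKM in the opaque hens, and the opaque values reached beyond the translucent ones at both ends.

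Towards the head end of both clusters the levels fell off in steps. HOXB4 (ENSGALG00000000284), known from blood stem cells and the neck region, was at 11.2, 9.75, 14.7, 15.9 and 10.6 FPKM in the translucent and 10.1, 10.8, 16.6, 15.4 and 9.31 FPKM in the opaque hens. HOXD4 (ENSGALG00000023419), its paralog, was at 21.2, 18.2, 22.7, 21.8 and 17.1 FPKM in the translucent and 19.1, 22.9, 25.7, 14.1 and 17.7 FPKM in the opaque hens. The opaque group held the lowest and the highest hen of both genes. HOXD3 (ENSGALG00000023420), which in mouse shapes the first neck vertebrae, was at 5.62, 6.02, 8.34, 6.94 and 5.07 FPKM in the translucent and 6.17, 9.59, 7.93, 3.49 and 4.59 FPKM in the opaque hens. Opaque-4 was lowest for HOXD3 and HOXD4 and highest for HOXB5, HOXB6 and HOXB8. HOXB3, of the same paralog group, had a mean of 5.74 ± 1.64 FPKM, and HOXB2, a hindbrain gene, 2.75 ± 1.16 FPKM (SD, n = 10).

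**Figure D2:**
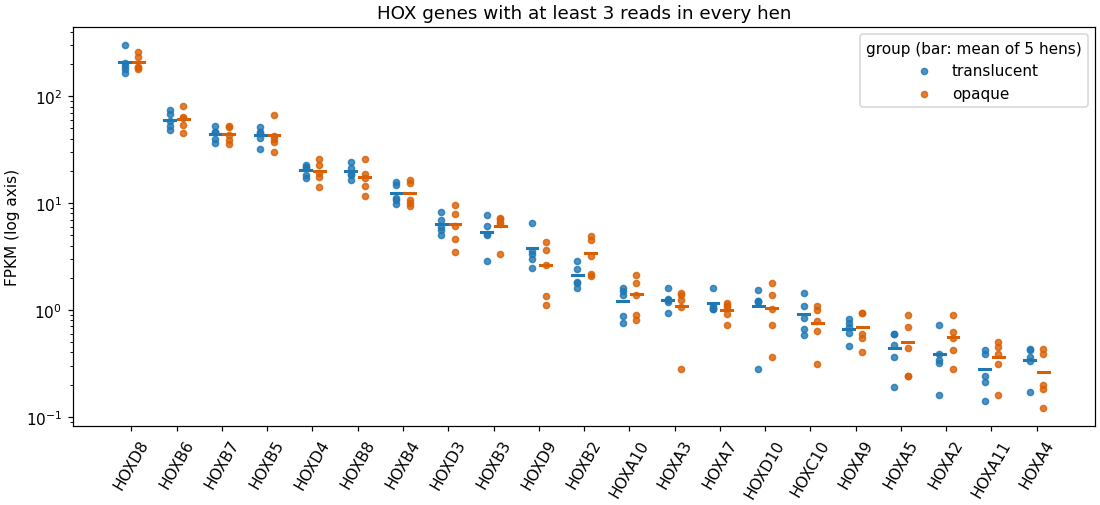
FPKM on a log axis of the 21 HOX genes detected in every hen, ordered by mean, with 1 point per hen (5 translucent in blue, 5 opaque in orange) and a bar at each group's mean. HOXD8 lies above all other genes in every hen, HOXB6, HOXB7 and HOXB5 follow, and the 2 groups overlap for each gene.

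Some neighbours in the order of mean FPKM were separate in all hens and others were not. HOXD8 exceeded HOXB6 in 10 of 10 hens, with a ratio between 2.74 and 4.85, and HOXB6 exceeded HOXB7 in 10 of 10. HOXB7 (44.3 FPKM) exceeded HOXB5 (43.1 FPKM) in only 6 of 10 hens, so their order was not separate from the spread between hens. HOXB5 exceeded HOXD4 in 10 of 10 hens, HOXD4 exceeded HOXB8 in 6 of 10, HOXB8 exceeded HOXB4 in 9 of 10 and HOXB4 exceeded HOXD3 in 10 of 10. Further down, HOXB2 exceeded HOXA10 in 10 of 10 hens, and from HOXA10 to HOXA4 each gene exceeded the next in 5 to 8 of 10 hens, so this lower part of the order was not resolved. Gene models of 12 HOX genes overlap a HOX neighbour in the RefSeq gene list, in 9 pairs such as HOXB5 with HOXB6, HOXB3 with HOXB4 and HOXD3 with HOXD4. How reads in such overlaps were shared is not known, and 0 of the 370 deposited HOX counts were fractional.

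In clusters D and B the drop on the tail side of group 8 was steep. HOXD9 (ENSGALG00000027513), next to HOXD8 in the cluster and known from limb and lower spine, had a mean of 3.20 ± 1.55 FPKM (SD, n = 10), and HOXD8 was 65.5 times as high by the means and higher in 10 of 10 hens. The ratio within a hen lay between 29.6 in Translucent-2 and 232.9 in Opaque-5. HOXD9 exceeded HOXD10 (1.07 FPKM) in 9 of 10 hens, and further along HOXD11 was at 0.554 FPKM, HOXD12 at 0.027 FPKM and HOXD13 at 0 reads. In cluster B, HOXB9 was at 0.447 FPKM against 18.7 FPKM of HOXB8, a ratio of 41.8, and HOXB13 had 0 reads. HOXB9 had 3, 6, 1, 9 and 10 reads in the translucent and 10, 5, 9, 0 and 2 reads in the opaque hens, so it lay at the edge of detection. The symbol HOXB9 is not in the RefSeq gene list. Clusters A and C, both at low levels, did not show this drop. Their highest means were at group 10, with HOXA10 at 1.31 FPKM and HOXC10 at 0.841 FPKM. HOXA10 exceeded HOXA3, the next gene of its cluster by mean (1.16 FPKM), in only 6 of 10 hens.

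Cluster A was on at a low level along most of its length. HOXA10 and HOXA11, which the mouse uterus needs for pregnancy, had means of 1.31 and 0.321 FPKM, and HOXA9, the oviduct gene of the mouse series, had 0.677 FPKM. HOXA13, which marks the mouse cervix and vagina, had 0 reads. HOXA11 had 6, 13, 8, 8 and 15 reads in the translucent and 17, 10, 13, 8 and 4 reads in the opaque hens. From group 3 to group 7 the A genes were below their paralogs of clusters B and D. HOXB6 was 236.3 times HOXA6, HOXB5 91.4 times HOXA5, HOXD4 66.2 times HOXA4, HOXB7 41.2 times HOXA7 and HOXD3 5.49 times HOXA3 by mean FPKM, and each was higher in 10 of 10 hens. The first 3 ratios are rough, since HOXA6 had 2 to 9 reads per hen, HOXA5 4 to 23 and HOXA4 3 to 18. Within a hen they lay between 130.6 and 677.9, between 33.7 and 273.7, and between 32.7 and 190.6. In group 9 HOXD9 was 4.72 times HOXA9 and higher in 10 of 10 hens, while HOXA9 had a higher mean than HOXB9 (0.447 FPKM) and HOXC9 (0.318 FPKM). In group 10 HOXA10 had a higher mean than HOXD10 (1.07 FPKM) and HOXC10 (0.841 FPKM), and HOXA4, HOXA5 and HOXA6 had higher means than HOXC4, HOXC5 and HOXC6.

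The lowest detected genes were HOXA4 and HOXA11. HOXA4 was at 0.303 FPKM, with 18, 11, 14, 14 and 6 reads in the translucent and 7, 3, 10, 11 and 5 reads in the opaque hens. Just outside the threshold, HOXD11 reached 3 reads in 9 hens, HOXA6, HOXB9 and HOXC9 in 7, HOXC8 in 6 and HOXC6 in 2. HOXC4, HOXC5 and HOXD12 stayed under 3 reads in each hen, with 4, 6 and 7 reads over all 10 hens together. Among the genes with no reads, HOXA13, HOXB13, HOXC11, HOXC12, HOXC13 and HOXD13 each had 0 in all hens, which allows up to the floor of 3 reads per hen. All of the group 13 genes in the table, which act in the limb tip, hindgut and cloaca, were thus not detected.

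Variation over the hens differed widely between HOX genes. The coefficient of variation (SD over mean) of CPM over the 10 hens had a median of 30.0% among the 21 detected genes, between 17.5% and 46.9%, beside a median of 24.1% among the 12858 genes tested, with quartiles of 16.1% and 37.1%. Without Translucent-1 and Opaque-5 the medians were 27.1% and 18.0%. The 2 sets were not matched for level, and HOXA2, the highest at 46.9%, was not among the genes tested. Counting error alone was between 1.59% (HOXD8) and 34.5% (HOXA2) for the 21 genes. Its part in the difference between the medians was not tested. Over the 10 hens HOXD4 had the lowest value, 17.5%, followed by HOXA7 at 19.8% and HOXB4 at 21.4%. Over the 8 hens the lowest were HOXD8 at 12.9%, HOXB7 at 15.6%, HOXA3 at 16.1% and HOXB3 at 17.0%, with HOXD4 at 18.0%, HOXA7 at 19.5% and HOXB4 at 23.4%. HOXA7 was at 3.32, 2.69, 2.64, 4.05 and 2.45 CPM in the translucent and 2.18, 2.82, 2.88, 2.80 and 2.18 CPM in the opaque hens, and its variation was close to its counting error of 15.4%.

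**Figure D3:**
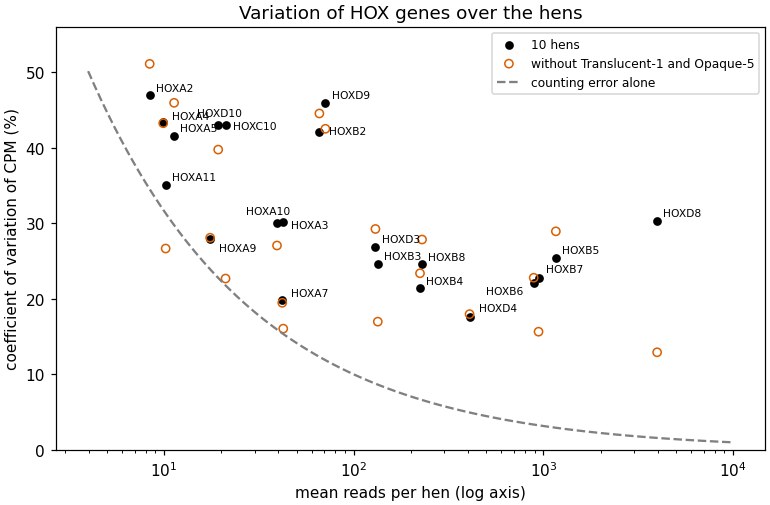
Coefficient of variation of CPM in percent against mean reads per hen on a log axis, for the 21 HOX genes detected in every hen, over 10 hens (filled) and over the 8 hens without Translucent-1 and Opaque-5 (open), with the counting error as a dashed line. HOXD9 and HOXB2 lie at 46.0% and 42.0% with a counting error of about 12%, and HOXD8 moves from 30.3% to 12.9% when the 2 hens are left out.

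The most variable detected genes were HOXA2, HOXD9 and HOXA4. HOXA2, a gene of the hindbrain and of the jaw and ear region, varied by 46.9% beside a counting error of 34.5%, with 8, 3, 6, 16 and 8 reads in the translucent and 9, 8, 13, 4 and 9 reads in the opaque hens. HOXA4 varied by 43.4% with a counting error of 31.8%. HOXD9 differed from both in that its 46.0% stood far above its counting error of 11.9%. It was at 4.18, 9.37, 4.77, 4.16 and 4.84 CPM in the translucent and 5.86, 1.91, 4.97, 3.94 and 1.88 CPM in the opaque hens, so that Translucent-2 was high, Opaque-2 and Opaque-5 were low and the other 7 hens lay between 3.94 and 5.86 CPM. HOXD8 varied by 30.3% over 10 hens and by 12.9% over the 8 hens, with a counting error of 1.59%. These are values of CPM, which the low TMM factors of Translucent-1 (0.855) and Opaque-5 (0.869) raise in those hens. In FPKM, HOXD8 was at 209.3 ± 42.9 (SD, n = 10).

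In no hen did all 21 detected HOX genes lie on the same side of the median of the other 9 hens. Translucent-1 was above that median for 15 of the 21 genes, Translucent-5 for 5 and the remaining hens for 8 to 14. By CPM, Translucent-1 was highest for 6 of the 21 detected genes and lowest for 2, and Opaque-5 was highest for 0 and lowest for 4. Against the median of the other 9 hens, the median difference over the 21 genes was 0.28 on the log2 CPM scale in Translucent-1 and -0.28 in Opaque-5, and between -0.17 and 0.17 in the other hens. Both of these hens were high for HOXD8, by 0.99 and 0.77 on that scale, and they went apart for HOXC10, at 1.12 in Translucent-1 and -1.03 in Opaque-5. Opaque-5 was also low for HOXA3 (-1.77), HOXD10 (-1.30) and HOXD9 (-1.29), so in that hen HOXD8 and its cluster neighbours HOXD9 and HOXD10 differed in opposite directions. Opaque-5 also had the lowest summed fibroblast markers, 308.9 CPM, and the highest summed epithelium markers. Of the fibroblast genes, COL1A2, COL3A1, LUM, PDGFRA and PDGFRB were lowest in that hen, while COL1A1, DCN and DPT were not. The part of the fibroblast and epithelium markers in the HOX levels of Opaque-5 was not tested.

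**Figure D4:**
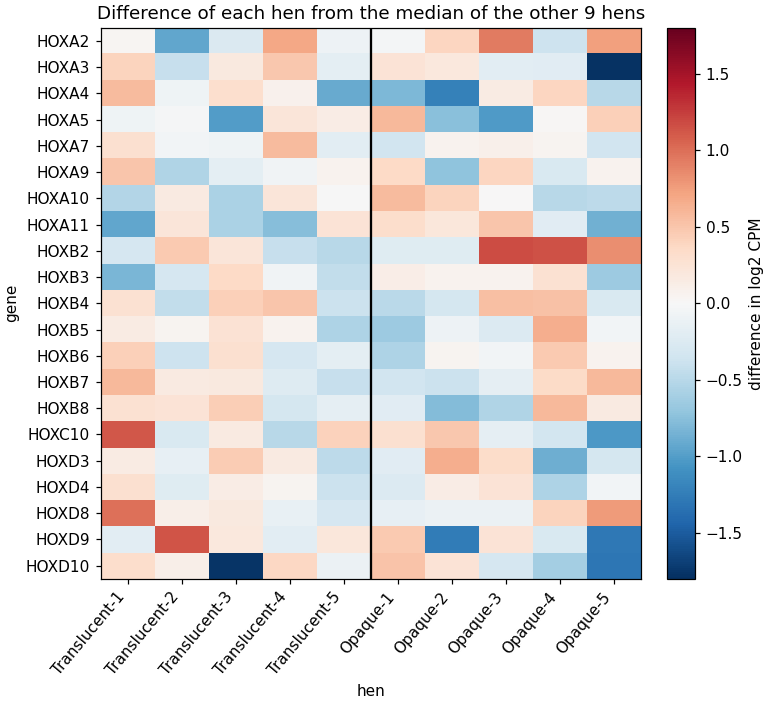
Difference in log2 CPM of each hen (columns, translucent left of the line and opaque right) from the median of the other 9 hens, for the 21 HOX genes detected in every hen (rows). HOXD8 is high in Translucent-1 (0.99) and Opaque-5 (0.77), HOXA3 is low in Opaque-5 (-1.77) and HOXD10 is low in Translucent-3 (-1.76).

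No HOX gene passed the test between translucent and opaque hens. The test was the quasi-likelihood test of edgeR, fitted on 12858 genes with p adjusted by Benjamini and Hochberg's method. Genes were called when the adjusted p was under 0.05 and the log2 fold change was over 1 in size. Of the 37 HOX genes, 21 passed the low-count filter, and 0 of these were called, beside 0% of all genes tested. These 21 leave out HOXA2, which was detected in every hen, and include HOXD11, which was not. With edgeR the lowest adjusted p of a HOX gene was 0.9999. At an unadjusted p under 0.05, 1 of 21 HOX genes passed, beside 2.19% of all genes. In the translucent hens 0 were higher, beside 1.07%, and 1 was lower, beside 1.12%. DESeq2 also called 0 HOX genes, beside 0.0246% of its genes. The log2 fold changes, translucent over opaque, lay between -0.69 and 0.55 with a median of 0.01, and 13 were above 0 and 8 below, and the standard errors lay between 0.17 and 0.54. For 0 of the 21 did the groups not overlap in CPM, beside 0.443% of all genes tested.

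HOXB2, which in mouse patterns the hindbrain and its facial nerve, was the gene with an unadjusted p under 0.05. It was at 3.26, 4.88, 4.06, 3.02 and 2.84 CPM in the translucent and 3.46, 3.49, 8.01, 7.87 and 6.33 CPM in the opaque hens. Opaque-3, Opaque-4 and Opaque-5 were above all translucent hens, and the other 2 opaque hens lay among them. The means were 3.61 ± 0.846 and 5.83 ± 2.25 CPM (SD, n = 5 each), with a log2 fold change of -0.69 (SE 0.30, unadjusted p = 0.0426 and adjusted p = 0.9999 by edgeR). Permuting the hens between the groups in all 252 ways, an exact two-sided test with a smallest p-value of 0.00794, gave p = 0.0873 for log2 CPM. Without any 1 of Translucent-1, Translucent-3, Translucent-4, Translucent-5, Opaque-3, Opaque-4 or Opaque-5 the unadjusted edgeR p was between 0.0539 and 0.115, and the log2 fold change without each of the 10 hens in turn was between -0.83 and -0.54. In the 6 hens numbered 1 to 3 of each group it was -0.28.

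HOXD9 had the largest positive log2 fold change, 0.55 (SE 0.37, unadjusted p = 0.170 by edgeR), from means of 5.46 ± 2.21 CPM (translucent) and 3.71 ± 1.79 CPM (opaque). Without Translucent-2 the log2 fold change of HOXD9 was 0.26. HOXD8, the most abundant HOX gene, had means of 274.3 ± 101.3 CPM (translucent) and 271.7 ± 71.8 CPM (opaque), with a log2 fold change of 0.01 (SE 0.24). The fold change was far smaller than its SE, and it was -0.24 without Translucent-1, 0.18 without Opaque-5 and 0.50 in the 6 hens numbered 1 to 3, so HOXD8 had no settled direction. The shares of the clusters also lay close together, with cluster D at 54.9% ± 4.32 in the translucent and 55.1% ± 4.35 in the opaque hens, and cluster B at 43.3% ± 4.16 and 43.1% ± 4.35.

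**Figure D5:**
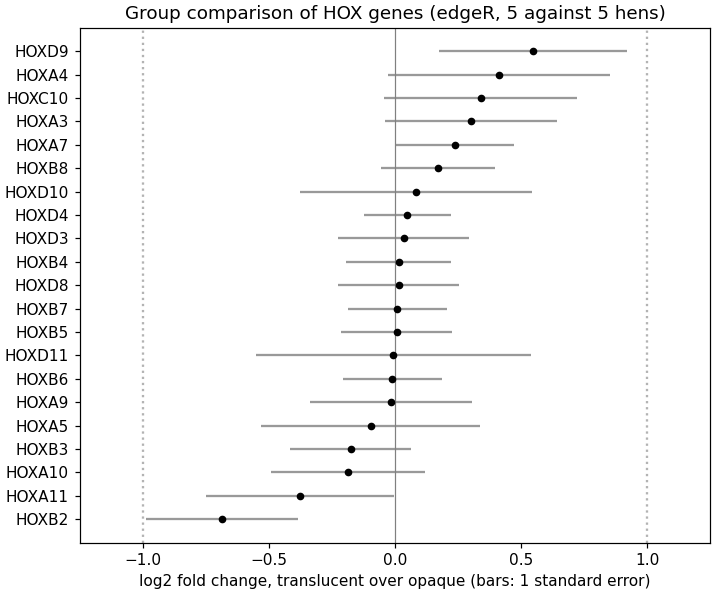
Log2 fold change, translucent over opaque, of the 21 HOX genes that passed the low-count filter (edgeR, 5 against 5 hens), with bars of 1 standard error and dotted lines at -1 and 1. The values lie between -0.69 (HOXB2) and 0.55 (HOXD9).

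Of the 16 HOX genes below the filter, 9 had reads. HOXD12 had 2, 2, 2, 0 and 1 reads in the translucent and 0 in all opaque hens, HOXC5 had 1, 1, 2, 1 and 0 in the translucent and 1, 0, 0, 0 and 0 in the opaque hens, and HOXC4 had 0 in all translucent and 1, 1, 1, 1 and 0 in the opaque hens. Each gave a p of 0.0476 before adjustment by the same exact permutation test, the lowest of the 9. All these values were under the floor of 3 reads, so no difference was detectable at this depth. By the median the translucent libraries were deeper, with 16389842 counts against 11742126. Opaque-1, at 17309287 counts, was nevertheless deeper than Translucent-2, Translucent-3 and Translucent-5. HOXC4 had reads in opaque hens only. The part of depth in these counts was not tested.

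HOX proteins bind DNA with cofactors of the TALE class, retinoic acid switches HOX genes on in embryos, and Polycomb and trithorax proteins keep them off or on afterwards. Of the TALE cofactors MEIS1 was at 47.1 ± 7.13 and PBX3 at 36.8 ± 7.94 FPKM (SD, n = 10). Among the 7 tested cofactors 0 were called and 0 had an unadjusted p under 0.05 by edgeR, beside 2.19% of all genes tested. Their median log2 fold change was 0.07, beside -0.01 over all genes tested. Of the 24 tested Polycomb genes, which include MTF2 (85.7 FPKM), RBBP4 (63.0 FPKM) and BMI1 (20.4 FPKM), 14 were above 0 and 10 below with a median of 0.02. Of the 8 tested trithorax genes, which include ASH1L (15.9 FPKM), KMT2C (8.36 FPKM) and KDM6A (18.1 FPKM), 2 were above 0 and 6 below with a median of -0.03. Of these 32 genes 0 were called and 0 had an unadjusted p under 0.05 by edgeR, beside 2.19% of all genes tested.

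Of the 12 tested retinoic acid genes 1 had an unadjusted p under 0.05 by edgeR, beside 2.19% of all genes tested. CRABP1, which binds retinoic acid inside cells, was at 14.4, 19.8, 15.6, 19.2 and 8.14 CPM in the translucent and 19.9, 20.8, 27.5, 30.5 and 30.4 CPM in the opaque hens. The highest translucent hen, at 19.83 CPM, was just under the lowest opaque hen, at 19.86 CPM. The groups thus narrowly did not overlap, as for 0.443% of all genes tested. The means were 15.4 ± 4.69 and 25.8 ± 5.17 CPM (SD, n = 5 each), with a log2 fold change of -0.74 (SE 0.24, unadjusted p = 0.00933 and adjusted p = 0.9999 by edgeR), so the difference did not pass the test over all genes. Of the 12 tested genes of this list 0 were called, 3 were above 0 and 9 below, with a median of -0.07. CYP26A1, which degrades retinoic acid, was at 68.8 ± 15.8 FPKM, and ALDH1A3, which makes it, at 25.7 ± 11.3 FPKM.

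Among regulators of the Müllerian duct, 0 of 10 tested genes were called, 4 were above 0 and 6 below, with a median log2 fold change of -0.11. At an unadjusted p under 0.05 by edgeR, 1 of these 10 passed, beside 2.19% of all genes tested. WNT4, a signal that the duct needs to form, had an unadjusted p of 0.0388 by edgeR (log2 fold change -0.43, SE 0.18, adjusted p = 0.9999), with means of 13.5 ± 2.09 CPM (translucent) and 18.2 ± 3.84 CPM (opaque), and the groups overlapped. The unadjusted edgeR p of WNT4 was between 0.0693 and 0.109 without any 1 of Translucent-1, Translucent-3, Translucent-5, Opaque-1, Opaque-3 or Opaque-5. Genes that flank the HOX clusters were on in every hen where they are not homeobox genes, with MTX2 at 80.9, HIBADH at 57.7 and SKAP2 at 28.6 FPKM. EVX1 and EVX2, the homeobox genes at the tail ends of clusters A and D, had 0 reads, as did the ParaHox genes CDX4, GSX1 and GSX2. The ParaHox gene CDX1 reached 3 reads in 3 hens, with a mean of 0.075 FPKM. Of the 6 tested genes of this list 0 were called, and 5 were above 0 and 1 below, with a median of 0.09.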

How the data were processed

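White isthmus RNA of 10 hens (5 translucent, 5 opaque) was sequenced with 1 library per hen. Reads were filtered with fastp, rRNA reads were removed with Bowtie2, the rest were aligned with HISAT2, transcripts were assembled with StringTie and genes were quantified with RSEM. Versions, genome build and strand setting are not given in the sources used here. The authors deposited expected counts, estimated by RSEM and not normalized, of which 6.73% were fractional, and FPKM, which the authors scaled for gene length and mapped fragments.

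Expected counts were rounded, and totals were 11601225 to 19014779 per hen, with TMM factors of 0.855 to 1.085. Groups were compared with edgeR 4.0.16 (filterByExpr, quasi-likelihood test) in R 4.3.3. CPM were TMM-normalized, and log2 CPM used a prior count of 2. Levels were compared between genes in FPKM, apart from the share of summed CPM given for cluster A. Marker genes were summed in CPM without scaling for gene length. DESeq2 1.42.0, limma 3.58.1 on log2(FPKM + 1) and log2(FPKM + 0.1), other scalings and filters, each hen left out, Translucent-1 and Opaque-5 left out, the 6 hens numbered 1 to 3, and the replicate number as a block were tried. Intervals for levels are SDs over hens, and floors cover counting error only.

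The steps were tested on simulated data for this comparison, in which 200 of 12858 genes were given a log2 fold change of 2. The genes recovered were 174 by edgeR (5 false calls), 185 by DESeq2 (16) and 173 by limma (5). In the simulation limma was run on log2(CPM + 1), so limma on FPKM was not itself tested. Smaller changes were not simulated.

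The HOX genes and related lists were chosen with earlier results of these data known. Named hen by hen were the 8 HOX genes of highest mean FPKM, genes with an unadjusted p under 0.05, the lowest detected genes and the 3 most and 3 least variable. Of the related lists, genes with an unadjusted p under 0.05 and otherwise the 3 of highest mean CPM were named. Of the listed genes, 83 of 97 related genes and 67 of 76 marker genes were found in the table. Of the 37 HOX symbols, 33 were found in the RefSeq list (assembly GRCg7b), which was used for names and neighbours only. The others, HOXB9, HOXC4, HOXC5 and HOXC6, were not in that list. HOXB1 and HOXD1 are not analysed here, and values of some other genes that these rules name are not reported here.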

Additional observations from a re-analysis of the deposited data

Results flagged for a closer look

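Among the 42 sets of 5 hens examined (21 detected HOX genes in each group), 3 had a hen whose gap to the nearest other hen, divided by the range of the group, exceeded Dixon's critical value for 5 samples. Chance flags about 1 in 20 sets, which is about 2.1 of 42. HOXD8 was at 451.2 CPM in Translucent-1, beside 197.9 to 255.4 CPM in the other translucent hens. HOXD9 was at 9.37 CPM in Translucent-2, beside 4.16 to 4.84 CPM. HOXA3, a gene of the neck and of glands of the throat, was at 0.791 CPM in Opaque-5, beside 2.62 to 3.19 CPM in the other opaque hens. Without Translucent-1 and Opaque-5 the coefficient of variation was 12.9% in place of 30.3% for HOXD8, 16.1% in place of 30.1% for HOXA3, and 42.5% in place of 46.0% for HOXD9.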

How the results depend on the processing

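In each alternative 0 HOX genes were called. HOX genes with an unadjusted p under 0.05 were 0 higher and 1 lower in translucent hens in the main test. With no low-count filter, 1 of 30 HOX genes was higher (HOXD12) and 2 were lower (HOXB2, HOXC4). Among all 16273 genes tested at that setting 238 were higher and 196 lower. In the 6 hens numbered 1 to 3, 3 of 20 HOX genes were higher (HOXB5, HOXB7, HOXB8) and 0 lower. There 522 of 12906 genes tested were higher and 468 lower. Without Translucent-1 and Opaque-5, with the replicate block, and with limma on log2(FPKM + 1) or log2(FPKM + 0.1), 0 HOX genes were lower. Leaving out 1 hen at a time gave 0 to 1 lower. The log2 fold change of HOXD8 was -0.0044 by library size alone, -0.0705 without Translucent-1 and Opaque-5, -0.0161 with the replicate block, -0.0179 and -0.0181 with limma (pseudocounts 1 and 0.1), 0.50 in the 6 hens, and -0.24 to 0.18 with 1 hen left out. In the 6 hens, median log2 fold changes were -0.17 for TALE cofactors, -0.25 for retinoic acid genes and -0.26 for trithorax genes, and with 1 hen left out that of the TALE cofactors was -0.063 (without Opaque-5) to 0.098. With at least 10 reads in every hen 13 HOX genes were detected. Cluster A held 2.23% of summed CPM. Without HOXD8, clusters A, B, C and D held 2.71%, 82.7%, 0.661% and 13.9% of the summed FPKM, groups 1 to 3, 4 to 8 and 9 to 13 held 7.30%, 88.8% and 3.95%, and paralog group 8 held 8.28%. The median coefficient of variation was 27.1% without Translucent-1 and Opaque-5. The causes of these changes were not tested. Same-numbered hens are different animals, so the number was not used to pair them in the main test. Their deviations correlated by -0.13 on average (5 pairs, between -0.42 and 0.097), beside 0.04 for 20 other pairs. With only 5 pairs, this cannot tell whether hens of the same number shared a handling step. The block gave 162 genes with an unadjusted edgeR p under 0.05 in place of 282, with 0 called. Among the genes named, the block took HOXB2 (log2 fold change -0.63) and WNT4 (-0.41) out of those with an unadjusted p under 0.05 and changed no other call. WNT4 also missed that threshold by library size alone (-0.43), with limma (-0.38 and -0.42) and without Translucent-1 and Opaque-5 (-0.34). In the 6 hens the log2 fold change was -0.45 for CRABP1 and -0.28 for HOXB2, which then missed that threshold, and 0.65 for HOXB8 (edgeR, adjusted p = 0.619). Depth limits statements on genes near 3 reads per hen.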

Other observations

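A row that StringTie assembled and that is described as Hox-B7, which carries no HOX symbol, had 5 to 26 reads per hen and a mean of 1.67 ± 0.683 FPKM (SD, n = 10), beside 44.3 FPKM of HOXB7 itself. It was not added to any HOX gene.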
